A study of Mus musculus with 12 samples.

Results

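The Fc gamma receptors are the surface proteins through which macrophages bind the constant part of IgG antibodies. The genes followed here are those of the activating receptors Fcgr1, Fcgr3 and Fcgr4, of the inhibitory receptor Fcgr2b, and of the common gamma chain Fcer1g. They were found by gene symbol and are 5 of the 43453 genes of the count table. For each gene the transcript with the highest total count over all libraries was used.

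Activating Fc gamma receptors cannot signal alone. They sit in the membrane with the gamma chain, whose cytoplasmic tyrosine motif recruits kinases such as Syk once immune complexes cross-link the receptors, and this leads to phagocytosis and cytokine release. Fcgr2b carries an inhibitory tyrosine motif of its own, recruits the lipid phosphatase encoded by Inpp5d and damps that signal. In glomerulonephritis caused by antibodies against the glomerular basement membrane (GBM), the disease the study addressed, the antibody deposited in the glomerulus is a ligand of these receptors.

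The data were RNA sequencing counts of bone marrow-derived macrophages (BMDMs) of C57BL/6 mice, grown with 50 ng/mL of M-CSF for 7 days. BMDMs of tlr4f/f mice, whose Tlr4 gene is flanked by loxP sites, and of tlr4f/f-lysM-cre mice, which also carry a Cre recombinase expressed from the myeloid lysM (Lyz2) locus, were left unstimulated (LPS-) or given 1 µg/mL of the bacterial endotoxin LPS for 6 h (LPS+). Each of these 4 groups had 3 libraries. Nothing in the labels says that the libraries of a group came from separate mice or cultures, so the p-values measure only the spread between these libraries, which may be technical.

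The check genes went against the headings of a pair of column groups. Tlr4, the deleted gene, was at 77.0 to 145.6 CPM (counts relative to the size of the library) in the libraries marked LPS- tlr4f/f and at 94.7 to 117.2 CPM in those marked LPS- tlr4f/f-lysM-cre, but at 24.5 to 31.2 CPM in those marked LPS+ tlr4f/f and at 24.4 to 27.4 CPM in those marked LPS+ tlr4f/f-lysM-cre. Lyz2, the host gene of the Cre, split the columns in the same way, with 6587 to 23331 CPM and 5953 to 9453 CPM in the LPS- columns, first of tlr4f/f and then of tlr4f/f-lysM-cre, and with 10.4 to 14.4 CPM and 52.4 to 75.3 CPM in the corresponding LPS+ columns. Il1b, which LPS induces, was at 0.0750 to 6.95 CPM in the libraries marked LPS- tlr4f/f and at 2.69 to 3.61 CPM in those marked LPS+ tlr4f/f, against 1633 to 8224 CPM and 2488 to 2671 CPM in the columns marked LPS- and LPS+ tlr4f/f-lysM-cre. The heading LPS- tlr4f/f-lysM-cre may therefore be exchanged with the heading LPS+ tlr4f/f. Groups are named by their headings throughout, and each comparison is given with the question it would answer if these headings were exchanged. The comparison of LPS+ tlr4f/f-lysM-cre with LPS- tlr4f/f and the interaction of genotype and LPS do not depend on the choice.

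Library totals, with 1 transcript per gene, ran from 33577440 to 56445989 counts. Replicates were closer to each other in the LPS+ columns (Pearson r of log2 CPM over genes of 0.989 to 0.991) than in the LPS- columns (0.928 to 0.964), which is a description over genes of these libraries. CPM here are scaled by TMM factors, which correct library sizes for composition. In the LPS- columns they were 1.11 to 1.21 marked tlr4f/f and 0.703 to 0.823 marked tlr4f/f-lysM-cre. In the LPS+ columns they were 1.16 to 1.19 marked tlr4f/f and 0.953 to 0.970 marked tlr4f/f-lysM-cre. Small differences in CPM between genotypes, such as those of Fcer1g, depend in part on these factors. A gene passed where the adjusted p of edgeR's quasi-likelihood test, by Benjamini-Hochberg over all genes tested, was below 0.05.

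In the GRCm38.p6 annotation of RefSeq, Fcgr2b (chr1:170960558-170976071, minus strand), Fcgr4 (chr1:171018926-171029761, plus strand), Fcgr3 (chr1:171051169-171065915, minus strand) and Fcer1g (chr1:171229572-171234349, minus strand) lie within 273.8 kb of chromosome 1. Fcgr1 (chr3:96282909-96293969, minus strand) lies alone on chromosome 3. The transcripts used were NM_001077189.1 for Fcgr2b, NM_144559.2 for Fcgr4, NM_010188.5 for Fcgr3, NM_010185.4 for Fcer1g and NM_010186.5 for Fcgr1. Fcgr2b and Fcgr3 are close in sequence. They shared no stretch of 150 bases, the read length, but 12.8% of the 50-base windows of Fcgr3 and 4.75% of those of Fcgr2b were found in the other. The longest shared run was 129 bases. In these sequences a read of full length could not match both genes exactly, but a trimmed read inside a shared run could. How many reads this touches was not tested. The sequences were those of the GENCODE records linked to the transcripts used. The record of Fcgr2b has 3544 bases, against 1547 for the transcript counted, so 4.75% may understate its shared part. No other pair of the 5 genes shared a run above 14 bases. The library kit does not mark strand, and 155 of the 5790 exonic bases of Fcgr2b overlap the antisense gene Gm38204, whose reads cannot be told apart there.

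The 250 bases before the annotated start of Fcgr1, Fcgr2b and Fcgr4, the receptor genes with the largest differences between column groups, are shown 5′ to 3′ on the strand of the gene, from RefSeq's GRCm38.p6, with matches to searched motifs in capitals. The Fcgr1 window is chr3:96293970-96294219, the Fcgr2b window chr1:170976072-170976321 and the Fcgr4 window chr1:171018676-171018925.
Fcgr1: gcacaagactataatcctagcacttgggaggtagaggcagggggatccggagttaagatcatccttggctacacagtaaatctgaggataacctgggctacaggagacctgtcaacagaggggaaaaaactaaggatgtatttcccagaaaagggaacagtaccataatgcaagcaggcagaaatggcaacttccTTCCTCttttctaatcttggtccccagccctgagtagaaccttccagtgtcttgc
Fcgr2b: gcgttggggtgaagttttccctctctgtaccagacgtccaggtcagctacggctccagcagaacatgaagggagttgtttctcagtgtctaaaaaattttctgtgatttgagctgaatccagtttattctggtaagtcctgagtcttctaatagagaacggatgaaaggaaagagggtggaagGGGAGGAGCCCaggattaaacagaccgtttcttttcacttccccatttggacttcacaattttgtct
Fcgr4: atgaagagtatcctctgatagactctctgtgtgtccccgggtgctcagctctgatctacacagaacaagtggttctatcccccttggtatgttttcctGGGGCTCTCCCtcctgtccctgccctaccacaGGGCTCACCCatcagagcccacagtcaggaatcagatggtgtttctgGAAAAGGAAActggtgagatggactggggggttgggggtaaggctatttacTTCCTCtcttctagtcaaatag
The motifs were searched on both strands as plain letters. They were the interferon element ISRE, a GAAA repeated after 2 bases, the PU.1 core GAGGAA, an NF-kB element, GGG and CC with 5 bases between, and AP-1, TGANTCA. In Fcgr1 the capitals are a PU.1 match at 55 to 50 bases before the start. PU.1 letters were found in 23.3% of the 32851 promoter windows of this length. The Fcgr4 window held an ISRE match, GAAAAGGAAA, at 73 to 64 bases, letters found in 2.98% of windows, a PU.1 match at 22 to 17 bases and several overlapping NF-kB matches. Fcgr2b held only a pair of overlapping NF-kB matches, at 67 to 57 bases, and these letters were found in 45.8% of windows. The windows of Fcgr3, which has a pair of overlapping starts, held PU.1 and NF-kB matches, and that of Fcer1g held a pair of NF-kB matches. No window of the 5 genes held the AP-1 letters, present in 6.75% of all windows. A match is a string of letters and not a site shown to be bound.

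Fcgr1 encodes the high-affinity receptor of monomeric IgG. It was at 70.1, 458.8 and 120.8 CPM in replicates 1 to 3 marked LPS- tlr4f/f, and at 95.7, 101.8 and 47.6 CPM in those marked LPS+ tlr4f/f. The libraries marked LPS- tlr4f/f-lysM-cre held 390.8, 1467 and 1052 CPM, and those marked LPS+ tlr4f/f-lysM-cre held 197.2, 164.3 and 173.5 CPM. The libraries marked LPS- tlr4f/f-lysM-cre were the highest, except that the lowest of them was under replicate 2 marked LPS- tlr4f/f, which stood apart from its group.

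Fcgr4 encodes the activating receptor that binds mainly IgG2a and IgG2b. Its libraries marked LPS- tlr4f/f held 34.2, 63.5 and 7.80 CPM, and those marked LPS+ tlr4f/f held 10.8, 15.5 and 10.0 CPM. In the libraries marked LPS- tlr4f/f-lysM-cre it was at 159.1, 342.5 and 263.8 CPM, and in those marked LPS+ tlr4f/f-lysM-cre at 23.7, 25.6 and 24.2 CPM. All libraries marked LPS- tlr4f/f-lysM-cre lay above the other 9 libraries, while those marked LPS- tlr4f/f spread over the ranges of both LPS+ columns.

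Fcgr3 encodes the low-affinity activating receptor for immune complexes. It was at 152.5, 388.7 and 191.2 CPM in the libraries marked LPS- tlr4f/f, and at 251.7, 319.4 and 261.0 CPM in those marked LPS+ tlr4f/f. The columns of tlr4f/f-lysM-cre held 132.8, 404.9 and 310.6 CPM with the LPS- heading and 161.7, 149.5 and 141.4 CPM with the LPS+ heading. Its ranges overlapped in every pair of column groups except the LPS+ columns, where all libraries marked tlr4f/f-lysM-cre lay lower.

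The inhibitory receptor gene Fcgr2b split the libraries most widely. It was at 12.6, 35.4 and 16.1 CPM in the libraries marked LPS- tlr4f/f and at 14.6, 14.4 and 12.7 CPM in those marked LPS+ tlr4f/f. The libraries marked LPS- tlr4f/f-lysM-cre held 1146, 574.8 and 840.3 CPM, and those marked LPS+ tlr4f/f-lysM-cre held 222.0, 217.2 and 195.1 CPM. Every library marked tlr4f/f-lysM-cre was above every library marked tlr4f/f, and the LPS- and LPS+ columns of tlr4f/f-lysM-cre did not overlap.

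Fcer1g, the gamma chain that the activating receptors share, was the steadiest of the 5 genes, with coefficients of variation within groups of 4.11% to 13.7%. It was at 562.5, 569.3 and 711.8 CPM in the libraries marked LPS- tlr4f/f and at 513.6, 556.7 and 516.7 CPM in those marked LPS+ tlr4f/f. The libraries marked LPS- tlr4f/f-lysM-cre held 1156, 1087 and 977.2 CPM, and those marked LPS+ tlr4f/f-lysM-cre held 765.0, 751.5 and 706.8 CPM. Both tlr4f/f columns lay under the columns of tlr4f/f-lysM-cre but for replicate 3 marked LPS- tlr4f/f, which was just above the lowest library marked LPS+ tlr4f/f-lysM-cre. For the receptors in the LPS- columns, these coefficients ran from 33.5% for Fcgr2b marked LPS- tlr4f/f-lysM-cre to 97.6% for Fcgr1 marked LPS- tlr4f/f. They were narrower in the column marked LPS+ tlr4f/f-lysM-cre, at 4.16% to 9.54%. In the column marked LPS+ tlr4f/f they ran from 7.54% for Fcgr2b to 36.4% for Fcgr1, which reaches into the range of the LPS- columns.

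**Figure D1:**
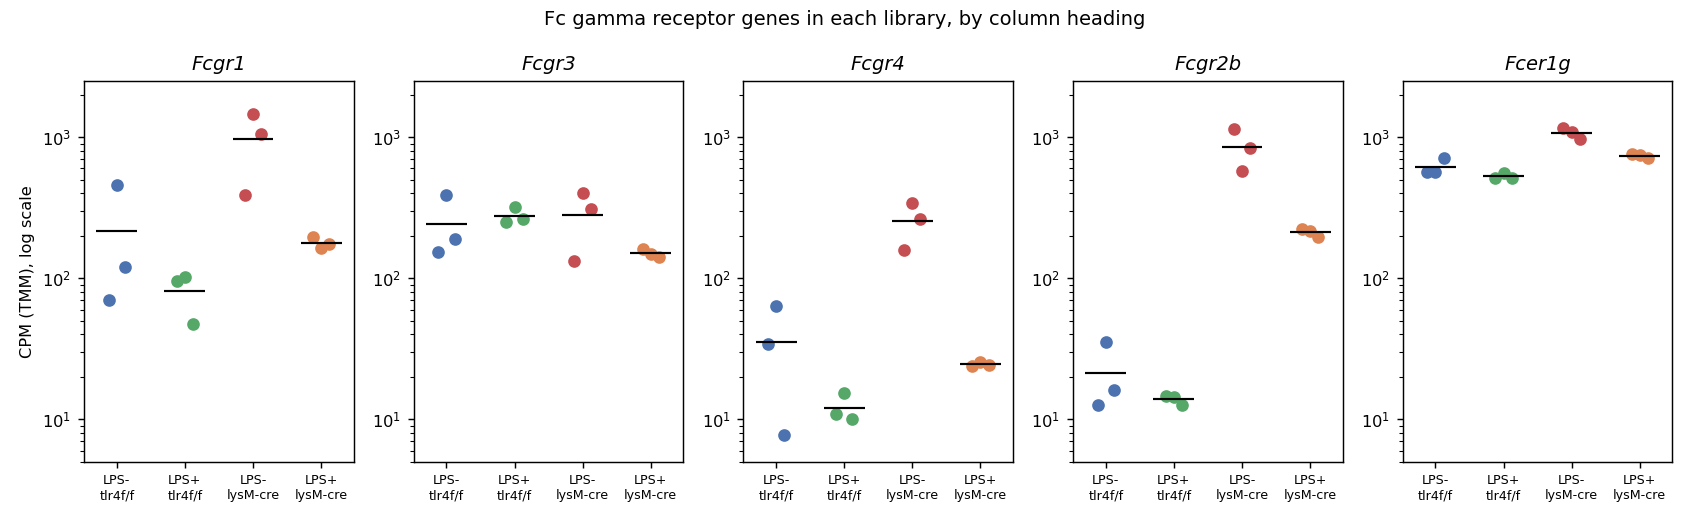
CPM scaled by TMM factors (log axis) of the 3 activating receptor genes, Fcgr2b and Fcer1g in each of the 12 libraries by column heading, where points are libraries and black lines are group means (lysM-cre stands for tlr4f/f-lysM-cre). Fcgr2b runs from 12.6 CPM to 1146 CPM over the libraries, and Fcer1g from 513.6 CPM to 1156 CPM.

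Replicate 2 marked LPS- tlr4f/f held the highest level of its group for all 4 receptors but not for Fcer1g. Replicate 1 marked LPS- tlr4f/f-lysM-cre held the lowest level of its group for Fcgr1, Fcgr3 and Fcgr4 and the highest for Fcgr2b and Fcer1g. These libraries also differed in the summed level of 5 fibroblast markers (Col1a1, Col1a2, Col3a1, Pdgfra and Dcn), which was 657.4, 60.2 and 8.72 CPM in replicates 1 to 3 marked LPS- tlr4f/f, 921.5, 136.2 and 1461 CPM in those marked LPS- tlr4f/f-lysM-cre, 20.0 to 24.6 CPM in the column marked LPS+ tlr4f/f and 29.2 to 43.0 CPM in that marked LPS+ tlr4f/f-lysM-cre. The summed level of 10 neutrophil markers was 3.95 to 52.3 CPM and 29.9 to 241.2 CPM in the LPS- columns, first of tlr4f/f and then of tlr4f/f-lysM-cre, against 10.2 to 19.5 CPM in the LPS+ columns. Their part in the receptor levels was not tested. Macrophage markers other than Lyz2 summed to 6898 to 8186 CPM in the column marked LPS- tlr4f/f-lysM-cre and to 4878 to 5940 CPM in LPS- tlr4f/f. The sums were 5506 to 5638 CPM in LPS+ tlr4f/f-lysM-cre, inside the range of LPS- tlr4f/f, and 3866 to 4042 CPM in LPS+ tlr4f/f. By this sum, the highest and the lowest column were also the highest and the lowest in mean Fcgr1, Fcgr2b, Fcgr4 and Fcer1g. Mean Fcgr3 was 282.7 CPM in the highest column and 277.4 CPM in the lowest. Its lowest mean was 150.9 CPM, in LPS+ tlr4f/f-lysM-cre. The single markers did not move together. Adgre1 averaged 3538 CPM marked LPS- tlr4f/f-lysM-cre against 1482 CPM marked LPS- tlr4f/f, and 2112 against 629.7 CPM in the LPS+ columns. In the same order Csf1r was at 1374 against 2074 CPM and 1704 against 1322 CPM. Cd68 was at 826.5 against 865.2 CPM and 610.5 against 790.4 CPM, and Itgam at 1814 against 1042 CPM and 1131 against 1182 CPM. Mertk was at 53.4 against 23.9 CPM and 17.5 against 11.7 CPM. The 4 dendritic cell markers (Flt3, Zbtb46, Xcr1 and Cd209a) were low but split the columns as Fcgr2b did, with sums of 2.90 to 6.10 CPM and 2.55 to 3.02 CPM in the LPS- and LPS+ columns of tlr4f/f-lysM-cre, against 0.225 to 0.395 CPM and 0.243 to 0.652 CPM in those of tlr4f/f. Most of that was Xcr1, with means of 4.004 and 2.45 CPM against 0.145 and 0.206 CPM, while Flt3 and Cd209a had at most 2 and 4 counts in any library. The part of these markers in the receptor levels was not tested either. Markers of B lymphocytes summed to at most 1.96 CPM, of NK and T lymphocytes to at most 1.97 CPM and of mast cells and basophils to at most 3.71 CPM in any library. In these bulk libraries fewer cells that express a gene and less RNA of it per cell cannot be told apart.

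In the libraries marked LPS+ tlr4f/f, none of the Fc gamma receptor genes passed against those marked LPS- tlr4f/f, the comparison that would show the response of tlr4f/f BMDMs to LPS. Fcgr1 had a log2 fold change of -1.40 ± 0.73 (SE, adjusted p = 0.292), Fcgr4 of -1.53 ± 0.69 (adjusted p = 0.234), Fcgr2b of -0.61 ± 0.39 (adjusted p = 0.380) and Fcer1g of -0.20 ± 0.12 (adjusted p = 0.368). The value of Fcgr3 was 0.20 ± 0.36 (adjusted p = 0.766). With edgeR 0 of 5 genes passed, where 1.28% of all 14712 genes tested did. At an unadjusted p below 0.05 there were 0, against 3626 of all genes, and 0 passed by DESeq2, against 2293 of all genes. Without replicate 3 marked LPS- tlr4f/f, the library with the least Fcgr4, this gene passed at -2.003 (adjusted p = 0.0260). If the headings are exchanged, the same libraries compare unstimulated tlr4f/f-lysM-cre with unstimulated tlr4f/f BMDMs.

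Receptor and gamma chain genes were lower in the libraries marked LPS+ tlr4f/f-lysM-cre than in the ones marked LPS- tlr4f/f-lysM-cre, the headed comparison for the response of tlr4f/f-lysM-cre BMDMs to LPS. Fcgr4 was 10.3-fold lower (log2 fold change -3.36 ± 0.28, SE, adjusted p = 0.00125) and Fcgr1 was 5.37-fold lower (-2.42 ± 0.44, adjusted p = 0.0112). Fcgr2b was 4.02-fold lower (-2.01 ± 0.26, adjusted p = 0.00400) and Fcer1g 1.44-fold lower (-0.52 ± 0.12, adjusted p = 0.0201). Fcgr3 was at 150.9 ± 10.2 CPM (SD, n = 3) against 282.7 ± 138.2 CPM and did not pass (-0.89 ± 0.36, adjusted p = 0.117). Of the 5 genes 4 passed, all lower, where 26.7% of 14245 genes passed and 14.2% passed as lower. By the study's criteria for differential expression, a fold above 2 and an adjusted p below 0.01, Fcgr2b and Fcgr4 were called, where 6.09% of all genes were. With any library marked LPS+ tlr4f/f-lysM-cre left out, Fcgr1 (adjusted p from 0.0554 to 0.0626) and Fcer1g (0.0974 to 0.116) no longer passed, and without replicate 1 marked LPS- tlr4f/f-lysM-cre Fcgr3 passed at -1.25 (adjusted p = 0.00464). If the headings are exchanged, these values compare tlr4f/f-lysM-cre with tlr4f/f BMDMs, both after LPS.

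Fcgr2b was the receptor gene that stood highest in the libraries marked LPS- tlr4f/f-lysM-cre against those marked LPS- tlr4f/f, the headed comparison of genotypes without LPS. Its mean was 853.6 ± 285.7 CPM (SD, n = 3) against 21.4 ± 12.3 CPM, 39.8-fold higher (log2 fold change 5.31 ± 0.54, SE, adjusted p = 0.00121). Fcgr4 was 7.17-fold higher (2.84 ± 0.74, adjusted p = 0.0263) and Fcer1g 1.74-fold higher (0.80 ± 0.19, adjusted p = 0.0192). Fcgr1 had 2.15 ± 0.82 (adjusted p = 0.0827) and Fcgr3 0.20 ± 0.50 (adjusted p = 0.780). These are 3 of 5 genes that passed, all higher, where 37.3% of 14649 genes passed and 17.9% passed as higher, and only Fcgr2b met the study's criteria, as did 17.1% of all genes. Left out by itself, replicate 2 marked LPS- tlr4f/f let Fcgr1 pass at 3.34 (adjusted p = 0.0196). Without replicate 1 marked LPS- tlr4f/f or replicate 2 marked LPS- tlr4f/f-lysM-cre only Fcgr2b passed, since Fcgr4 (adjusted p = 0.0714 and 0.0706) and Fcer1g (0.0738 and 0.0573) were lost. Fcer1g was also lost without replicate 2 marked LPS- tlr4f/f (adjusted p = 0.0811) or replicate 1 marked LPS- tlr4f/f-lysM-cre (0.0642), and Fcgr4 without replicate 3 marked LPS- tlr4f/f-lysM-cre (0.0624). If the headings are exchanged, this is the response of tlr4f/f BMDMs to LPS.

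All 5 genes differed between the libraries marked LPS+ tlr4f/f-lysM-cre and the ones marked LPS+ tlr4f/f, the headed comparison of genotypes with LPS. Fcgr2b was at 211.4 ± 14.4 CPM (SD, n = 3) against 13.9 ± 1.05 CPM, 15.3-fold higher (log2 fold change 3.94 ± 0.075, SE, adjusted p = 1.14e-12). Fcgr1 was 2.20-fold higher (1.14 ± 0.33, adjusted p = 0.0381), Fcgr4 2.05-fold higher (1.03 ± 0.15, adjusted p = 0.000236) and Fcer1g 1.41-fold higher (0.50 ± 0.055, adjusted p = 6.30e-06). Fcgr3 went the other way and was 1.83-fold lower (-0.87 ± 0.089, adjusted p = 1.44e-05). The background was high in this comparison, with 61.4% of 14551 genes passing, 30.5% as higher and 31% as lower, and with 67.5% of genes, like all 5 here, at ranges that did not overlap between the groups. Fcgr2b and Fcgr4 met the study's criteria, as did 21.8% of all genes. The call of Fcgr1 was lost without each of 5 libraries, all but replicate 3 marked LPS+ tlr4f/f (adjusted p from 0.0502 to 0.112). With all 12 libraries in the fit, which lends these groups the wider spread of the LPS- columns, only Fcgr2b and Fcer1g passed, and Fcgr3 was at -0.88 (adjusted p = 0.123). If the headings are exchanged, this is the response of tlr4f/f-lysM-cre BMDMs to LPS.

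**Figure D2:**
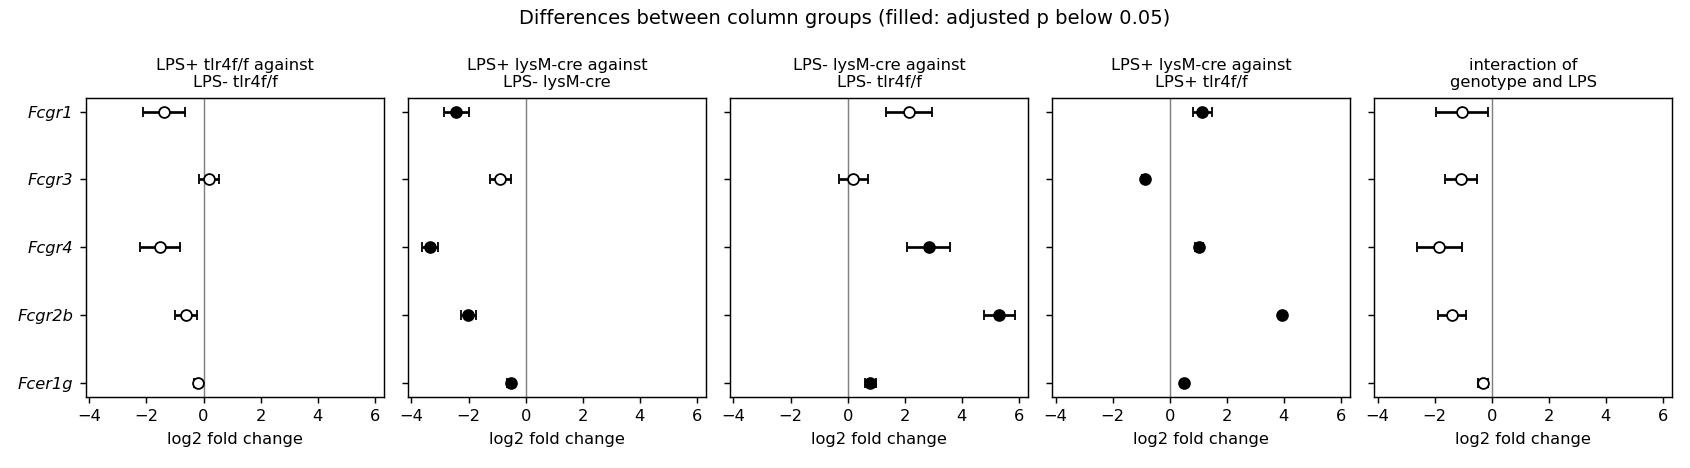
Log2 fold changes (x axis) of the 5 genes in the 4 headed comparisons and in the interaction, where bars are standard errors of edgeR's fit and filled points passed at an adjusted p below 0.05 (lysM-cre stands for tlr4f/f-lysM-cre). Fcgr2b stands at 5.31 and 3.94 in the comparisons of genotypes without and with LPS, and no point of the interaction is filled.

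Fcgr2b was also the only one of the 5 genes that passed between the column groups whose headings are not in doubt. In the libraries marked LPS+ tlr4f/f-lysM-cre it was 9.92-fold higher than in those marked LPS- tlr4f/f (log2 fold change 3.31 ± 0.42, SE, adjusted p = 0.00224), where 40.7% of 14595 genes passed, 20.4% as higher, and genotype and LPS differ together. Fcgr1 (-0.28 ± 0.67, adjusted p = 0.765), Fcgr3 (-0.69 ± 0.35, adjusted p = 0.161), Fcgr4 (-0.52 ± 0.66, adjusted p = 0.561) and Fcer1g (0.28 ± 0.13, adjusted p = 0.140) did not pass. Replicate 2 marked LPS- tlr4f/f decided the sign of Fcgr1, which passed without it at 0.91 (adjusted p = 0.0387). Without replicate 3 marked LPS- tlr4f/f, Fcgr4 at -0.996 (adjusted p = 0.0289) and Fcer1g at 0.39 (adjusted p = 0.00723) passed.

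Between the column groups whose headings may be exchanged, the libraries marked LPS+ tlr4f/f held 61.7-fold less Fcgr2b (log2 fold change -5.95 ± 0.32, SE, adjusted p = 2.47e-05) and 21.1-fold less Fcgr4 (-4.40 ± 0.34, adjusted p = 9.91e-05) than those marked LPS- tlr4f/f-lysM-cre. Fcgr1 was 11.8-fold lower (-3.57 ± 0.55, adjusted p = 0.00182) and Fcer1g 2.03-fold lower (-1.02 ± 0.12, adjusted p = 0.000632), while Fcgr3 was at -0.025 ± 0.37 (adjusted p = 0.961). The 4 genes that passed were all lower, where 53.5% of 14595 genes passed and 26.2% passed as lower. An exchange turns the sign of these values.

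The interaction, the difference between the genotypes in their LPS response, has the same value under both readings, and with edgeR 0 of the 5 genes passed, where 6.99% of 15792 genes did. Unadjusted p-values were below 0.05 for Fcgr2b (-1.39 ± 0.49, SE, adjusted p = 0.115) and Fcgr4 (-1.84 ± 0.79, adjusted p = 0.191). Over all 15792 genes, 3692 were below 0.05 unadjusted. Fcgr1 had -1.04 ± 0.92 (adjusted p = 0.546), Fcgr3 -1.09 ± 0.56 (adjusted p = 0.276) and Fcer1g -0.32 ± 0.18 (adjusted p = 0.314). Fcgr2b passed by DESeq2 (-1.47, adjusted p = 0.0290), by limma voom with weights per group, chosen after seeing the data (-1.46, adjusted p = 0.0462), and with edgeR without replicate 2 marked LPS- tlr4f/f (-1.96, adjusted p = 0.0107).

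Mean levels fell from LPS- tlr4f/f-lysM-cre over LPS+ tlr4f/f-lysM-cre to LPS- tlr4f/f and last to LPS+ tlr4f/f for Fcgr2b and Fcer1g. For Fcgr2b each step but the last passed, and for Fcer1g only the first did. Fcgr1 and Fcgr4 shared the order LPS- tlr4f/f-lysM-cre, then LPS- tlr4f/f, then LPS+ tlr4f/f-lysM-cre and last LPS+ tlr4f/f. The step between the LPS+ columns passed for both genes, that between the LPS- columns for Fcgr4 alone, and the middle step for neither. For Fcgr3 the order was LPS- tlr4f/f-lysM-cre, then LPS+ tlr4f/f, then LPS- tlr4f/f and last LPS+ tlr4f/f-lysM-cre, and no neighbours differed beyond their spread.

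The make-up of the receptor transcripts was compared per kilobase of transcript, so that levels of different genes could be set side by side. In the libraries marked LPS- tlr4f/f, Fcgr3 made 62.2% ± 8.04 (SD, n = 3) of the summed level of the 4 receptors and Fcgr2b 4.66% ± 0.413. In those marked LPS+ tlr4f/f, Fcgr3 made 80.5% ± 3.91 and Fcgr2b 3.55% ± 0.392. The inhibitory receptor made the largest share in all libraries marked LPS+ tlr4f/f-lysM-cre, with 40.6% ± 1.16, and averaged 43.3% ± 21.2 in those marked LPS- tlr4f/f-lysM-cre. There replicate 1 decided the rank. Fcgr2b made 66.3%, 24.6% and 39.1% in replicates 1 to 3 and Fcgr1 13.5%, 37.5% and 29.2%, and without replicate 1 the means were 31.8% for Fcgr2b and 33.4% for Fcgr1. In the LPS- and LPS+ columns of tlr4f/f-lysM-cre Fcgr3 made 15.0% ± 5.65 and 33.1% ± 0.224. Fcgr1 made between 12.2% ± 3.73 marked LPS+ tlr4f/f and 26.7% ± 12.2 marked LPS- tlr4f/f-lysM-cre, and Fcgr4 between 3.76% ± 0.349 and 14.9% ± 3.38 in the same columns. The summed level of the 4 receptors was 1339 ± 202 CPM per kilobase in the libraries marked LPS- tlr4f/f-lysM-cre, against 306.0 ± 201.6 marked LPS- tlr4f/f, 255.2 ± 36.9 marked LPS+ tlr4f/f and 336.7 ± 20.6 marked LPS+ tlr4f/f-lysM-cre.

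**Figure D3:**
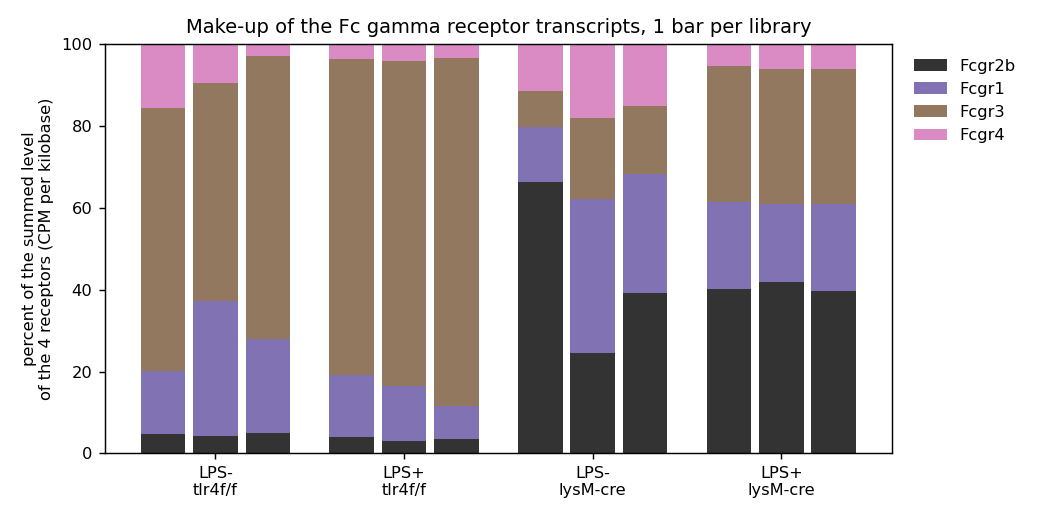
Share of each receptor gene in the summed level of the 4 receptors (y axis, percent of CPM per kilobase), with 1 bar per library and replicates 1 to 3 from left to right in each column group (lysM-cre stands for tlr4f/f-lysM-cre). Fcgr2b (black) is a thin band in both tlr4f/f columns and averages 43.3% and 40.6% in the others.

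The ratio of an activating receptor to Fcgr2b within a library does not depend on how libraries are scaled. Fcgr3 over Fcgr2b, per kilobase, was 13.3 ± 0.669 (SD, n = 3) in the libraries marked LPS- tlr4f/f and 22.8 ± 2.87 in those marked LPS+ tlr4f/f. It was 0.454 ± 0.338 marked LPS- tlr4f/f-lysM-cre and 0.816 ± 0.0253 marked LPS+ tlr4f/f-lysM-cre. Fcgr3 thus exceeded Fcgr2b in all 6 libraries marked tlr4f/f and in none marked tlr4f/f-lysM-cre. Fcgr1 over Fcgr2b was 5.19 ± 2.30 and 3.46 ± 1.07 in the LPS- and LPS+ columns of tlr4f/f, against 0.826 ± 0.664 and 0.505 ± 0.0457 in those of tlr4f/f-lysM-cre. Fcgr4 over Fcgr2b was 2.06 ± 1.38 and 1.08 ± 0.221, against 0.433 ± 0.285 and 0.144 ± 0.0110. The 3 ratios share Fcgr2b, so they are not separate results. Between the LPS+ columns none of them overlapped, and neither did the CPM of 67.5% of all genes tested. Between the LPS- columns Fcgr4 over Fcgr2b overlapped, at 0.601 to 3.35 marked LPS- tlr4f/f and 0.172 to 0.738 marked LPS- tlr4f/f-lysM-cre. With 3 libraries against 3, the exact two-sided permutation test cannot go below p = 0.1, and the 18 tests of the 3 ratios over 6 pairs of groups had p of 0.1 or more, with an adjusted p of 0.138 at the least.

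**Figure D4:**
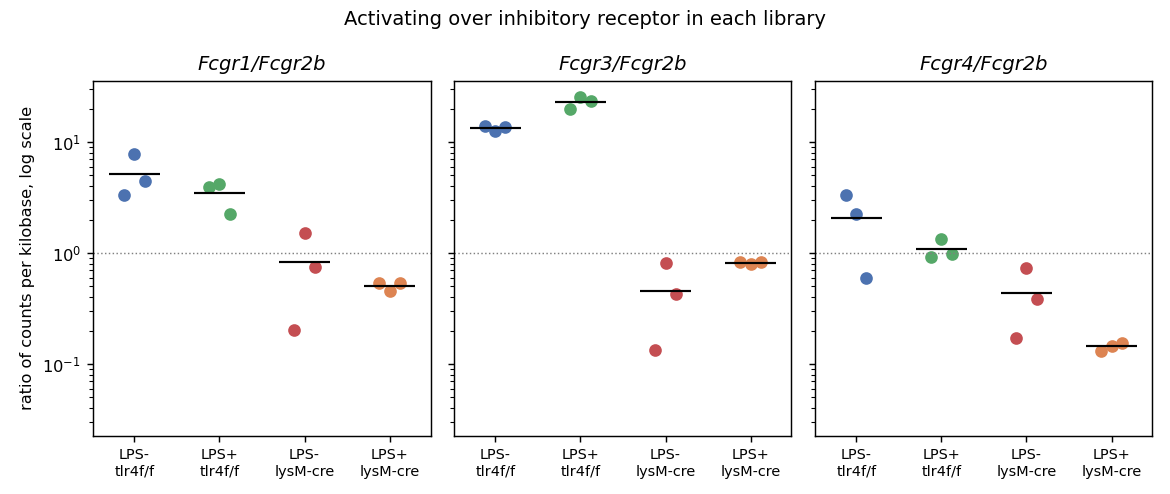
Ratios of each activating receptor gene to Fcgr2b per kilobase (log axis) in the 12 libraries, where points are libraries, black lines are group means and the dotted line marks equal levels (lysM-cre stands for tlr4f/f-lysM-cre). Mean Fcgr3 over Fcgr2b is 13.3 and 22.8 in the tlr4f/f columns and 0.454 and 0.816 in the others.

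Over the 12 libraries, log2 CPM of Fcgr1 and Fcgr4 had a Pearson r of 0.903 and Fcgr2b and Fcer1g of 0.921, while Fcgr3 had r of -0.145 with Fcgr2b and -0.115 with Fcer1g. These are descriptions, since the libraries fall into 4 groups and the genes share each library. By the same measure over 15792 genes, the genes most like Fcgr2b were Dusp16 (0.993), a phosphatase of stress kinases, the kinase Pim1 (0.990) and the chemokine Ccl4 (0.989). Those most like Fcgr1 were Npc2 (0.978), a carrier of cholesterol in lysosomes, Gm11696 (0.962) and Tor1a (0.951). Fcgr4 was nearest to Sf3a3 (0.980), Il18bp (0.977), which encodes the binding protein of interleukin 18, and Cndp2 (0.971). Fcer1g was nearest to Fbxo38 (0.995), Gapvd1 (0.993) and Ppp1r11 (0.990). Fcgr3 was nearest to Adra1a (0.965), the lysosomal galactosidase Gla (0.951) and the purine receptor P2ry12 (0.945).

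Of 10 other genes of the count table that lie in the interval from Fcgr2b to Fcer1g, 7 could be tested between the LPS+ columns and 5 passed, all lower in the libraries marked LPS+ tlr4f/f-lysM-cre, where 61.4% of all genes passed and 31% as lower. Of the 4 Fc receptor genes in the interval, Fcgr2b, Fcgr4 and Fcer1g were higher there and Fcgr3 was lower. Between the LPS- columns 3 of 7 tested passed as lower in the libraries marked LPS- tlr4f/f-lysM-cre. Of all genes 37.3% passed there, 17.9% as higher and the rest of these as lower. Another, Gm34968, named after its values were seen, was kept by the filter on low counts only through the column where it is high, so its counts are given with no test. It is a long non-coding RNA gene at chr1:170977128-170978755, beyond the start of Fcgr2b. It had 52 to 92 counts in the libraries marked LPS- tlr4f/f-lysM-cre, 4 to 9 counts in those marked LPS+ tlr4f/f-lysM-cre and 0 to 1 count in those of both tlr4f/f columns.

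Downstream of the activating receptors, 16 genes of kinases, adaptors and effectors were measured, and most were higher in the libraries marked LPS+ tlr4f/f-lysM-cre than in the ones marked LPS+ tlr4f/f. There 13 were higher, 1 was lower and 2 did not pass, with a median log2 fold change of 0.88 against -0.021 over all genes tested, of which 61.4% passed and 30.5% as higher. Between the LPS- columns 6 were higher in the libraries marked LPS- tlr4f/f-lysM-cre, 1 was lower and 9 did not pass (median 0.90, all genes -0.077), where 37.3% of all genes passed and 17.9% as higher. Lcp2, an adaptor, was at 729.1 ± 252.1 CPM (SD, n = 3) marked LPS- tlr4f/f-lysM-cre against 47.8 ± 24.0 CPM marked LPS- tlr4f/f (log2 fold change 3.92, adjusted p = 0.00256), and at 316.8 ± 10.8 CPM against 26.6 ± 0.881 CPM in the LPS+ columns (3.58, adjusted p = 6.82e-13). Syk, the kinase next to the gamma chain and named after its values were seen, was 2.44 and 2.43 higher on the log2 scale in these comparisons (adjusted p = 0.00100 and 4.37e-12). Between the tlr4f/f columns 2 of the 16 genes passed, both lower with the LPS+ heading (median -0.10, all genes -0.035), and between the tlr4f/f-lysM-cre columns 2 were higher and 4 lower with the LPS+ heading (median -0.29, all genes 0.026), where 1.28% and 26.7% of all genes passed.

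The 9 genes of inhibitory signalling had no common direction. In the libraries marked LPS+ tlr4f/f-lysM-cre 4 were higher and 4 lower than in those marked LPS+ tlr4f/f (median log2 fold change -0.0025, all genes -0.021), and 3 were higher and 1 lower between the LPS- columns (median -0.14, all genes -0.077). Of all genes 61.4% and 37.3% passed in these comparisons. Inpp5d, the lipid phosphatase that Fcgr2b recruits, went the other way than Fcgr2b in both comparisons. It was at 64.8 ± 14.4 CPM (SD, n = 3) marked LPS- tlr4f/f-lysM-cre against 266.9 ± 30.7 CPM marked LPS- tlr4f/f (log2 fold change -2.05, adjusted p = 0.00132), and at 99.3 ± 15.4 CPM against 158.5 ± 1.11 CPM in the LPS+ columns (-0.66, adjusted p = 0.000413). Ptpn6, a tyrosine phosphatase that binds inhibitory motifs, was at 642.5 ± 106.3 CPM against 369.7 ± 68.3 CPM (0.79, adjusted p = 0.0297) and at 558.6 ± 10.1 CPM against 223.4 ± 5.70 CPM (1.33, adjusted p = 2.62e-10). Without replicate 1 or 2 of either LPS- column its first call was lost (adjusted p from 0.0638 to 0.101). Between the tlr4f/f columns 1 gene passed, lower with the LPS+ heading (median -0.21), and between the tlr4f/f-lysM-cre columns 1 passed, higher with the LPS+ heading (median -0.032), against 1.28% and 26.7% of all genes.

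Other Fc receptors were sparse. Of 13 such genes, 7 could be tested between the LPS+ columns, and Fcer1a was at 0 in all 12 libraries. There 2 were higher and 2 lower (median log2 fold change -0.058, all genes -0.021), where 61.4% of all genes passed, and between the LPS- columns 2 of 6 were higher and 1 lower (median -0.35, all genes -0.077), where 37.3% did. In both, 1 of the higher genes was Fcrlb, which the filter on low counts kept only through the columns of tlr4f/f-lysM-cre, so its counts are given with no test between genotypes. Trim21, a cytosolic antibody receptor, was at 266.5 ± 54.8 CPM (SD, n = 3) marked LPS- tlr4f/f-lysM-cre against 35.2 ± 2.43 CPM marked LPS- tlr4f/f (log2 fold change 2.91, adjusted p = 0.000480), and at 149.8 ± 13.4 CPM against 23.6 ± 1.66 CPM in the LPS+ columns (2.68, adjusted p = 6.04e-11). Fcrlb had 186 to 432 counts marked LPS- tlr4f/f-lysM-cre and 72 to 133 counts marked LPS+ tlr4f/f-lysM-cre, against 2 to 19 and 6 counts in the LPS- and LPS+ columns of tlr4f/f. Between the tlr4f/f columns 0 of 5 passed with edgeR (median -0.98), where 1.28% of all genes did. At an unadjusted p below 0.05 there were 4, against 3626 of all 14712 genes, and 3 passed by DESeq2, against 2293 of all genes. The listed genes in both counts were lower with the LPS+ heading. Between the tlr4f/f-lysM-cre columns 4 of 7 were lower with the LPS+ heading (median -0.82, all genes 0.026), where 26.7% of all genes passed and 14.2% as lower.

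Receptors that pair with the gamma chain, together with other signalling adaptors, were 6 genes. Of these 3 were higher and 1 lower in the libraries marked LPS+ tlr4f/f-lysM-cre than in the ones marked LPS+ tlr4f/f (median log2 fold change 0.82). Between the LPS- columns 2 were higher (median 0.88). These shares stand beside 61.4% and 37.3% of all genes that passed. Clec4e, the C-type lectin that uses Fcer1g to sense mycobacterial glycolipid, was at 2477 ± 618 CPM (SD, n = 3) against 25.5 ± 10.6 CPM in the LPS- columns (6.60, adjusted p = 0.000544) and at 1545 ± 202 CPM against 13.7 ± 0.942 CPM in the LPS+ columns (6.83, adjusted p = 1.52e-11). Clec4n, another lectin that pairs with the gamma chain, was at 13.7 ± 1.73 CPM against 2.06 ± 0.415 CPM in the LPS+ columns (2.75, adjusted p = 1.54e-08) and did not pass between the LPS- columns (1.26, adjusted p = 0.493). Between the tlr4f/f columns 0 of the 6 passed with edgeR (median -0.66), where 1.28% of all genes did. At an unadjusted p below 0.05 there were 2, against 3626 of all 14712 genes, and 1 passed by DESeq2, against 2293 of all genes. With the LPS+ heading 1 was lower between the tlr4f/f-lysM-cre columns (median -0.72), where 26.7% of all genes passed and 14.2% as lower.

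**Figure D5:**
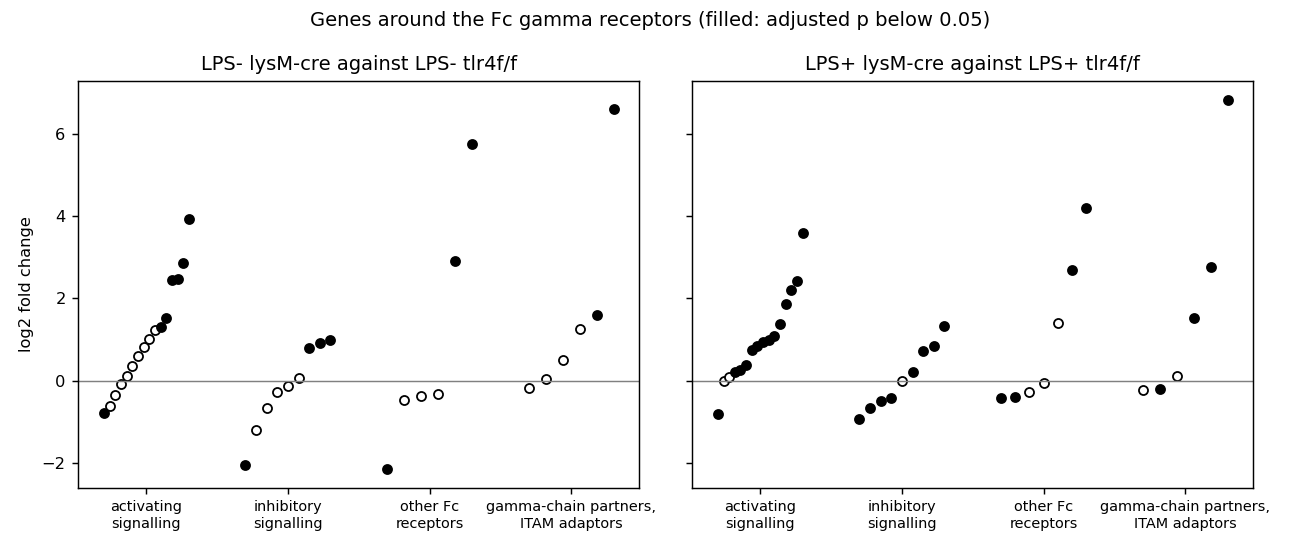
Log2 fold changes (y axis) of the tested genes of the 4 lists between the LPS- columns (left) and between the LPS+ columns (right), tlr4f/f-lysM-cre against tlr4f/f as headed, where each point is a gene, sorted within its list, and filled points passed (lysM-cre stands for tlr4f/f-lysM-cre). Of the 16 activating genes 13 are filled above 0 on the right, and the highest point in both panels is Clec4e at 6.60 and 6.83. The highest point among other Fc receptors is Fcrlb, whose fit is drawn although the filter kept it only through the columns where it is high.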

How the data were processed

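RNA of 12 BMDM libraries, 3 in each of 4 groups, was sequenced as paired 150-base reads. The labels name both rRNA removal and poly(A) sequencing. The authors deposited raw read counts per transcript. The submitters' processing notes name Trimmomatic 0.36, FastQC, HISAT2, HTSeq and mm10. Transcripts of a gene had nearly equal counts (91.2% to 99.9% of the one used, for Fcgr2b and Fcgr3), so they were not summed and the transcript with the highest total was used. Counts were filtered (filterByExpr), scaled (TMM) and tested by edgeR 4.0.16 (R 4.3.3) on the libraries of each comparison, with Benjamini-Hochberg adjustment over all genes, and by an exact permutation test for ratios. DESeq2 1.42.0 and limma 3.58.1 served as alternatives, beside other size factors, no filter, summed transcripts, a fit of all 12 libraries, a replicate block, the study's criteria, exchanged headings and leaving out each library. The tests were tried on simulated data. SE is the absolute log2 fold change over the root of F. Correlations used log2 CPM with a prior count of 2. No columns were left unassigned.

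The receptors, gene lists and marker lists were chosen with earlier results of these data known. Named genes were the 5 genes, Tlr4, Lyz2 and Il1b, the 3 genes most correlated with each of the 5, those of the lists that passed in the interaction, and of each list the pair with the largest log2 fold change among those that passed in the 4 headed comparisons, except 1 that is not reported here.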

Additional observations from a re-analysis of the deposited data

Results flagged for a closer look

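None of the 5 Fc gamma receptor genes passed edgeR's quasi-likelihood test of a difference between the genotypes in the LPS response. Among the signalling genes around them, 3 of 16 activating and 1 of 9 inhibitory genes did, where 6.99% of all genes passed, by a value that is the same under both readings of the headings.

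Card9, an adaptor of gamma chain signalling, had an interaction of 1.05 on the log2 scale (adjusted p = 0.00255). It was at 34.5 ± 0.124 CPM (SD, n = 3) marked LPS- tlr4f/f, 24.5 ± 0.420 CPM marked LPS+ tlr4f/f, 19.9 ± 1.45 CPM marked LPS- tlr4f/f-lysM-cre and 29.2 ± 1.90 CPM marked LPS+ tlr4f/f-lysM-cre. Inpp5d, the phosphatase recruited by Fcgr2b, had 1.37 (adjusted p = 0.0103). Both passed without any single library.

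Pik3r1, a regulatory subunit of PI3 kinase, had 1.02 (adjusted p = 0.0281). It was at 66.8 to 108.6 CPM in the other 3 column groups and at 132.8 to 144.1 CPM marked LPS+ tlr4f/f-lysM-cre, and it no longer passed without any 1 of the 6 libraries of the LPS+ columns (adjusted p from 0.0621 to 0.0779).

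Lyn, a Src family kinase that phosphorylates both kinds of receptor, had -0.64 (adjusted p = 0.0362). It was at 142.4 to 175.0 CPM marked LPS- tlr4f/f, 130.2 to 143.9 CPM marked LPS+ tlr4f/f, 905.3 to 913.7 CPM marked LPS- tlr4f/f-lysM-cre and 462.6 to 530.5 CPM marked LPS+ tlr4f/f-lysM-cre. It was lost without any 1 of these 6 libraries too, or without replicate 1 or 2 marked LPS- tlr4f/f-lysM-cre (adjusted p from 0.0504 to 0.120), and without the filter on low counts (0.111). No group had enough libraries for a test of single libraries that stand apart.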

How the results depend on the processing

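Exchanging the headings gives each of the 4 headed comparisons the values of another. In these Fcgr1, Fcgr2b, Fcgr4 and Fcer1g changed sign and Fcgr3 did not. Only between the exchanged groups did the signs turn by construction. Genes that passed became 3 between the tlr4f/f columns and 0 between the LPS- columns. The response of tlr4f/f BMDMs to LPS then read 2.15 for Fcgr1, 5.31 for Fcgr2b, 2.84 for Fcgr4 and 0.80 for Fcer1g (log2 fold changes), and that of tlr4f/f-lysM-cre BMDMs 1.14, 3.94, 1.03 and 0.50. The genotypes then differed by -1.40, -0.61, -1.53 and -0.20 without LPS and by -2.42, -2.01, -3.36 and -0.52 with LPS. Between the exchanged groups Fcgr1 read 3.57, Fcgr2b 5.95, Fcgr3 0.025, Fcgr4 4.40 and Fcer1g 1.02. Log2 differences of Fcgr3 over Fcgr2b became -5.23 and -4.80 for LPS in tlr4f/f BMDMs and then in those of tlr4f/f-lysM-cre, and 0.77 and 1.197 for the genotypes without and with LPS. Those of Fcgr1 and Fcgr4 over Fcgr2b kept their sign in the 4 headed comparisons. Between the exchanged groups the ratios of Fcgr1, Fcgr3 and Fcgr4 became -2.44, -6.00 and -1.53. Among listed genes without LPS, Trim21 read -0.56, Lcp2 -0.84, Ptpn6 -0.71, Clec4e -0.88 and Clec4n -2.31. With LPS, Fcrlb read -1.98, Trim21 -0.82, Lcp2 -1.19, Inpp5d 0.62, Ptpn6 -0.19, Clec4e -0.67 and Clec4n -0.84.

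The study's criteria called 2 of the 5 genes between the tlr4f/f-lysM-cre columns, 1 between the LPS- columns and 2 between the LPS+ columns. A fit of all 12 libraries left 2 between the LPS+ columns. In the interaction 1 gene, Fcgr2b, passed by DESeq2 and 1, the same gene, by limma voom, the latter chosen after seeing the data.

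Leaving out each replicate in turn gave 0 to 1 genes between the tlr4f/f columns, 2 to 5 between the tlr4f/f-lysM-cre columns, 1 to 3 between the LPS- columns, 1 to 3 between the columns LPS+ tlr4f/f-lysM-cre versus LPS- tlr4f/f, and 0 to 1 in the interaction. Fcgr3, near 0, changed sign without replicate 1 marked LPS- tlr4f/f between the tlr4f/f columns (-0.044, up to 0.71 without another) and between the LPS- columns (-0.054, up to 0.71), and without replicate 2 marked LPS- tlr4f/f-lysM-cre between the latter (-0.14). For LPS+ tlr4f/f versus LPS- tlr4f/f-lysM-cre it read -0.40 to 0.30 with a library left out, and was positive, from 0.0054, without 1 of 4 libraries (0.054 and 0.034 without replicates 1 and 3 of LPS+ tlr4f/f), 0.038 without the filter on low counts and 0.11 by limma voom. Between the columns LPS+ tlr4f/f-lysM-cre versus LPS- tlr4f/f, Fcgr1 read 0.19 by limma voom and 0.91 without replicate 2 marked LPS- tlr4f/f, where Fcgr4 read 0.23. Without other single libraries they ran down to -0.70 and -0.996. Fcgr1 over Fcgr2b, -1.09 at the lowest, read 0.37 between the tlr4f/f-lysM-cre columns without replicate 2 marked LPS- tlr4f/f-lysM-cre. Without the filter on low counts Fcgr4 between the LPS- columns (adjusted p = 0.0991) and Fcgr1 between the LPS+ columns (0.0771) were lost. Fcgr3 passed between the tlr4f/f-lysM-cre columns by DESeq2 (0.0386), and Fcgr1 between the LPS- columns by DESeq2 (0.00521) and in the fit of 12 libraries (0.0197). The cause was not tested.

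Same-numbered replicates were not treated as pairs, since of 18 correlations of their deviations from group means (-0.037 to 0.472) 5 were above 0.1. The highest, 0.472 and 0.340, were those of replicates 1 and 2 between the LPS- columns, where replicate 3 had 0.014. Whether these libraries were prepared together was not tested. With the replicate number as a block, Fcgr1 changed sign to 0.21 between the columns LPS+ tlr4f/f-lysM-cre versus LPS- tlr4f/f, and Fcgr3 to 0.10 for LPS+ tlr4f/f versus LPS- tlr4f/f-lysM-cre. The block lost Fcer1g between the tlr4f/f-lysM-cre columns (adjusted p = 0.0673) and Fcgr1 between the LPS+ columns (0.0896), gained Fcgr1 between the LPS- columns (0.00953), and changed no other call of the 5 genes. It also lost Ptpn6 between the LPS- columns (0.0538), as did leaving out the filter on low counts (0.0533). Clec4n was lost between the LPS+ columns in the fit of 12 libraries (0.0909).

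Counts over all genes varied too. Between the tlr4f/f columns 188 genes passed, against 2293 by DESeq2, 560 by limma voom, 732 in the fit of 12 libraries, 0 with the block, and 0 to 2174 with a library left out. Between the tlr4f/f-lysM-cre columns 3804 passed, 2446 with the block and 1039 to 4960 with a library left out. Between the LPS- columns 5471 passed and 8367 in the fit of 12 libraries, between the LPS+ columns 8938 and 4914. Between the columns LPS+ tlr4f/f-lysM-cre versus LPS- tlr4f/f 5944 passed, and 3309 to 7001 with a library left out. In the interaction 1104 passed, 2151 by DESeq2, 733 without the filter and 368 to 1539 with a library left out. The percentages of genes passing move with these counts. No other scaling moved the median of all genes by 0.1. All values of the 5 genes rest on at least 416 counts.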
